A study of Mus musculus with 4 samples.

Results

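miR-101a and miR-101b are the paralogous mouse miRNAs that an Agilent mouse miRNA array lists under the names mmu-miR-101a and mmu-miR-101b. They were taken by exact name, with all their probes, from the scanner files of 4 arrays, and they are 2 of 577 miRNA names. Their probes are 4 of 1712 and their spots 40 of 11540 on each array, controls aside. The pair was picked because its members differed in how far they moved between the groups, so the values of that comparison are given as a description, with no test of either miRNA or of their ratio. RNA came from the mouse embryonic stem cell line A3-1, cultured in serum-containing medium with LIF, the cytokine used to hold such cells in the undifferentiated state. The siLin28a group received an siRNA against Lin28a and the siGFP group, the control, received an siRNA against GFP, both for 48 h, with no other treatment named in the labels. Each group had 2 replicates, each on 1 single-colour (Cy3) array, and nothing states that they came from separate cultures, so their spread may be technical. A miRNA array holds no probe for Lin28a mRNA, so how deep the knockdown was is not known here.

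A miRNA is cut from a hairpin precursor by Drosha and Dicer and guides Argonaute to target mRNAs, which it finds mainly through its seed near the 5′ end. miR-101 is best known for repressing Ezh2, the methyltransferase of a Polycomb repressive complex that keeps developmental genes silent in embryonic stem cells. LIN28A is an RNA-binding protein known for binding the loop of let-7 precursors and blocking their maturation.

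The mature sequences are printed because they show how much the pair shares and where it differs. Capitals mark the seed (bases 2 to 8), and U stands for uracil, as in the RefSeq table with coordinates in build GRCm38.p6.
miR-101a-3p: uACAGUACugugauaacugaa
miR-101b-3p: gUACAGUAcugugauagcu
miR-101a-5p: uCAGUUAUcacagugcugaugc
miR-101b-5p: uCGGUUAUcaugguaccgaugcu
The 3p arm is the one the plain array names denote, and for miR-101a the probe targets of the 2 arms start 36 bases apart in the files, as the RefSeq arms do. miR-101a-3p lies at chr4:101346957-101346977 on the minus strand and miR-101b-3p at chr19:29135338-29135356 on the plus strand. The stretch of the miR-101b hairpin that lines up with all 21 bases of miR-101a-3p differed from it at 1 base, A16G, with the miR-101a base first and positions counted from 1 at the 5′ end of miR-101a-3p. RefSeq starts miR-101b-3p 1 base earlier than that stretch and ends it 3 bases sooner. The seed windows as annotated are therefore shifted by 1 base and share the letters ACAGUA, and each was the seed of 1 mature mouse miRNA in the table. The 5p arms were identical at 17 of 23 aligned positions.

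The hairpins are shown with the 3p arm in capitals, since the loop between the arms is the part of let-7 precursors that LIN28A contacts.
Mir101a: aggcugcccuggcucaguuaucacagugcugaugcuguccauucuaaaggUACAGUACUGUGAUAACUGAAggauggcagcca
Mir101b: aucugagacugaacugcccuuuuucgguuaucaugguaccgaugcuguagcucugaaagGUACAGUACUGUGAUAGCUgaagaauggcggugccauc
Aligned end to end, the hairpins were identical at 64 of 97 positions. The letters GGAG, a motif known from let-7 loops, were searched on the RNA strand of the whole hairpin. They did not occur in either miR-101 hairpin, and they occurred in 447 of 1005 mouse hairpins in the table (44.5%) and in 9 of 11 let-7 hairpins. Mir101b lies within the bounds of Rcl1, a protein-coding gene for a ribosomal RNA processing factor, and Mir101a within the bounds of the lncRNA E130102H24Rik. Whether these positions are exonic or intronic was not looked up. No other miRNA hairpin on the array had a probe target within 10 kb of either.

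Each miRNA had 2 probes with 10 spots each, placed over the array. The spot annotation gives the probe targets, and the file headers give the build as mm9. The targets of miR-101a are 101019562 to 101019581 and 101019562 to 101019582 on chromosome 4, which are 20 and 21 bases. Those of miR-101b are 29209833 to 29209849 and 29209832 to 29209849 on chromosome 19, which are 17 and 18 bases. Probes of different length and sequence bind with different strength, so the brightness of miR-101a cannot be set against that of miR-101b as an amount. Only the change of each, or of their ratio, from array to array can be read. Whether a probe of one also captured the other was not tested. The RefSeq table also lists a mature miR-101c on chromosome 9, whose 19 bases are identical to a stretch of miR-101a-3p. Whether the miR-101a probes also captured miR-101c was not tested.

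All 160 member spots over the 4 arrays were well above background, and 8 carried an outlier flag in the files and were dropped. The coefficient of variation over the spots of a probe on an array was 4.65% at the median, between 1.78% and 11.8%. The mean spot was 2.08 to 6.04 times as bright as the local background. Both miRNAs therefore passed the filter on dim probes in every array of both groups, and none of their values lay at the floor used for dim signals.

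For miR-101a the unscaled spots did not overlap between the groups. Its probe with the 20-base target had mean processed signals, in intensity units, of 244.6 ± 8.88 and 210.3 ± 9.67 (SD over spots) on the siLin28a arrays and 153.7 ± 2.73 and 151.6 ± 3.99 on the siGFP arrays. The probe with the 21-base target had 264.3 ± 8.04 and 223.9 ± 8.0 with siLin28a and 169.2 ± 7.94 and 162.9 ± 4.83 with siGFP. All 20 siLin28a spots of the first probe and all 19 of the second were brighter than every siGFP spot of the same probe. Spots are repeats within an array and not replicates of the treatment. The siLin28a arrays were also brighter as a whole. How many of all probes had spots apart in this way was not counted, so nothing is read from this separation.

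For miR-101b the unscaled spots overlapped. Its probe with the 17-base target had 48.1 ± 2.92 and 44.1 ± 3.67 (SD over spots) on the siLin28a arrays and 39.9 ± 2.48 and 43.4 ± 5.14 on the siGFP arrays. The probe with the 18-base target had 123.8 ± 5.90 and 109.3 ± 6.22 with siLin28a and 110.1 ± 7.39 and 106.8 ± 4.92 with siGFP. Only 5 of 20 siLin28a spots of the first and 7 of 19 of the second were brighter than every siGFP spot of that probe. The group mean was 1.11 times as high with siLin28a for the first and 1.07 times for the second, against 1.49 and 1.47 times for the miR-101a probes.

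**Figure D1:**
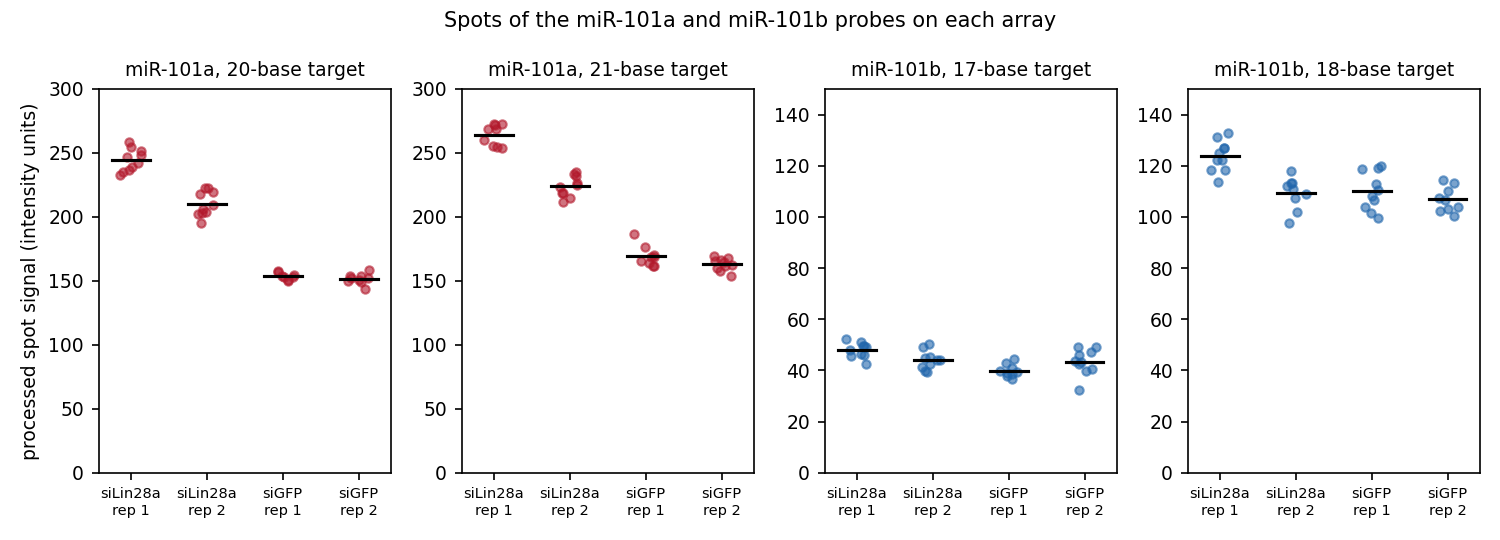
Processed signal of each spot, in intensity units without scaling between arrays, for the 4 probes. Points are spots kept after outlier flags, black bars their means, and the vertical axes start at 0 and span more for miR-101a than for miR-101b; the siLin28a spots of miR-101a lie above all its siGFP spots, and those of miR-101b overlap.

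The siLin28a arrays were brighter as a whole, so each array was divided by its 75th percentile, taken over the 425 probes that were well above background on every array. These divisors were 248.0 and 264.9 for siLin28a and 225.8 and 219.7 for siGFP. Levels below are log2 of the scaled signal, averaged over the probes of a miRNA, and 231 miRNAs passed the filter on dim probes.

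miR-101a had levels of 0.04 and -0.29 on the siLin28a arrays and -0.49 and -0.48 on the siGFP arrays, so the groups did not overlap. Its mean was -0.13 ± 0.23 with siLin28a and -0.48 ± 0.0018 with siGFP (SD, n = 2 each), a log2 difference of 0.36 or a fold of 1.28. The nearest arrays of the 2 groups were 0.20 apart, less than the 0.32 between the siLin28a replicates. Groups without overlap and with siLin28a higher were found for 30.7% of all tested miRNAs, and 18.2% of them had a larger positive difference than miR-101a.

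miR-101b had levels of -1.69 and -1.93 on the siLin28a arrays and -1.77 and -1.69 on the siGFP arrays, and the groups overlapped. Its mean was -1.81 ± 0.17 with siLin28a and -1.73 ± 0.06 with siGFP (SD, n = 2 each), a log2 difference of -0.08 or a fold of 0.947. This difference was smaller than the pooled replicate SD of 0.13, and 79.7% of the tested miRNAs had a difference of larger size. Its sign was not stable, since it was 0.044 without siLin28a replicate 2 and 0.12 with no scaling between arrays. For miR-101a the difference was 0.20 without siLin28a replicate 1, 0.52 without siLin28a replicate 2 and 0.56 with no scaling.

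In the limma fit across all 231 miRNAs, 2 were called higher at an adjusted p below 0.05 (0.866% of those tested) and 0 lower, against 31 higher and 26 lower at an unadjusted p below 0.05. The count of higher calls was 0 with the scaling over all probes, with normexp and without either siGFP array, and 40 with no filter on dim probes. The 2 called miRNAs were let-7a and let-7f, and 0 of the 2 miR-101 members were called. Because the pair was picked from this comparison, nothing is read from that count. The median log2 difference of all tested miRNAs was 0 and the median size was 0.23.

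**Figure D2:**
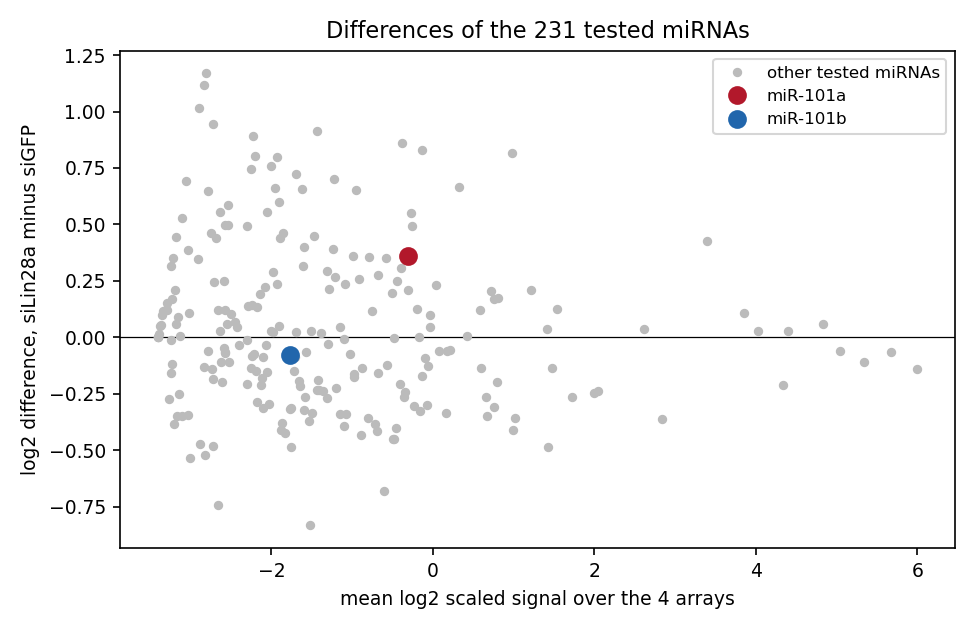
Log2 difference (siLin28a minus siGFP) against the mean log2 scaled signal over the 4 arrays for the 231 tested miRNAs. miR-101a lies at 0.36 and miR-101b at -0.08, both inside the spread of the other miRNAs.

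Both paralogs shared a replicate pattern in the siLin28a group. Replicate 1 exceeded replicate 2 there by 0.32 for miR-101a and by 0.25 for miR-101b on the log2 scale. In the siGFP group the gap between replicates was -0.0025 and -0.08. The log2 ratio of miR-101a to miR-101b within an array takes out what moves both alike, including the scaling between arrays. It was 1.72 and 1.64 on the siLin28a arrays and 1.28 and 1.21 on the siGFP arrays, without overlap. Its mean was 1.68 ± 0.05 with siLin28a and 1.24 ± 0.05 with siGFP (SD, n = 2 each). The log2 ratio was thus 0.44 higher with siLin28a, a factor of 1.35, against a pooled replicate SD of 0.05. The pair was picked for this divergence, so the ratio describes these 4 arrays, and it does not show that miR-101b was unchanged.

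**Figure D3:**
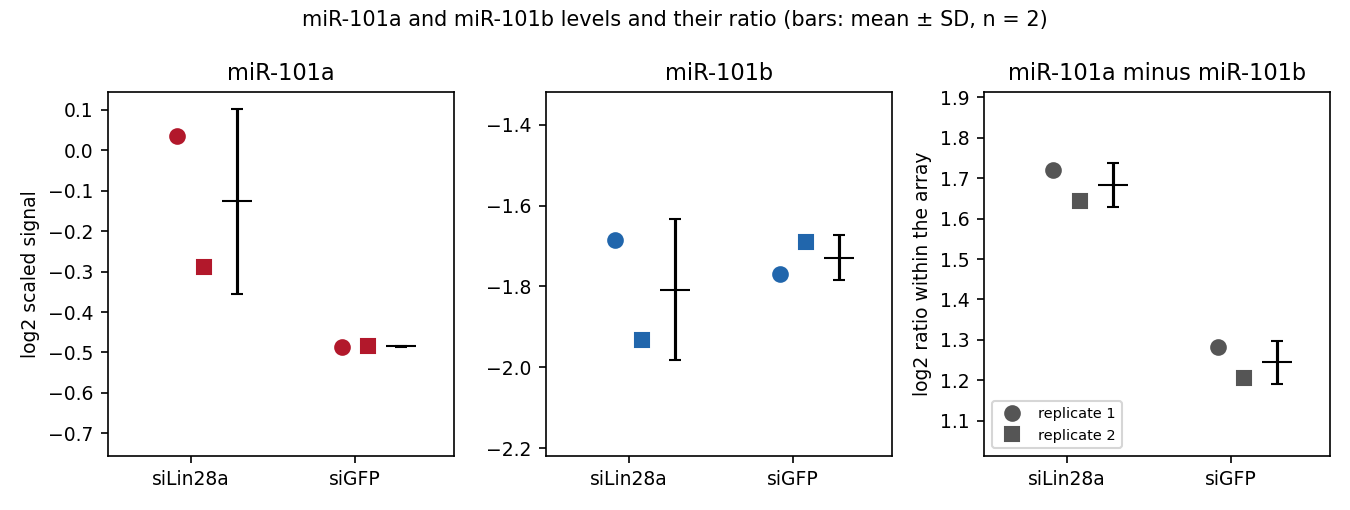
Log2 scaled signal of miR-101a and miR-101b and their log2 ratio within the array, by group, with replicate 1 as circles and replicate 2 as squares. Bars give the mean ± SD (n = 2), and each panel spans 0.9 on the log2 scale around its own centre; the ratio is higher on both siLin28a arrays (1.64 and 1.72) than on both siGFP arrays (1.21 and 1.28).

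The probes of each miRNA gave like values. The 2 miR-101a probes differed between the groups by 0.37 and 0.35 on the log2 scale, and the 2 miR-101b probes by -0.06 and -0.10. Each of the 4 pairings of a miR-101a probe with a miR-101b probe had a higher ratio with siLin28a without overlap, with changes of 0.40 to 0.47. These pairings reuse the same probes and arrays of a pair picked for its divergence. Of all tested miRNAs taken singly, 30.7% were higher with siLin28a without overlap, so nothing is read from the count of pairings. The log2 ratio between the 2 probes of the same miRNA varied over the 4 arrays by 0.05 for miR-101a and 0.17 for miR-101b, which is a technical spread and no measure of the spread between samples.

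Feature Extraction's total gene signal sums the probes of a miRNA on its own scale, with an error estimated within the array. For miR-101a it was 362.4 ± 26.0 and 314.6 ± 22.5 on the siLin28a arrays and 223.5 ± 16.4 and 229.2 ± 16.7 on the siGFP arrays. For miR-101b it was 122.4 ± 10.4 and 111.1 ± 9.20 with siLin28a and 103.8 ± 9.17 and 109.5 ± 9.31 with siGFP. These errors cover noise within an array and not the spread between samples, and the signals are not scaled between arrays. The same values stand in the authors' deposited table. miR-101a*, the 5p arm of the miR-101a hairpin, was not detected on any array, with total signals from -5.42 to -2.25, so nothing can be said of that arm.

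**Figure D4:**
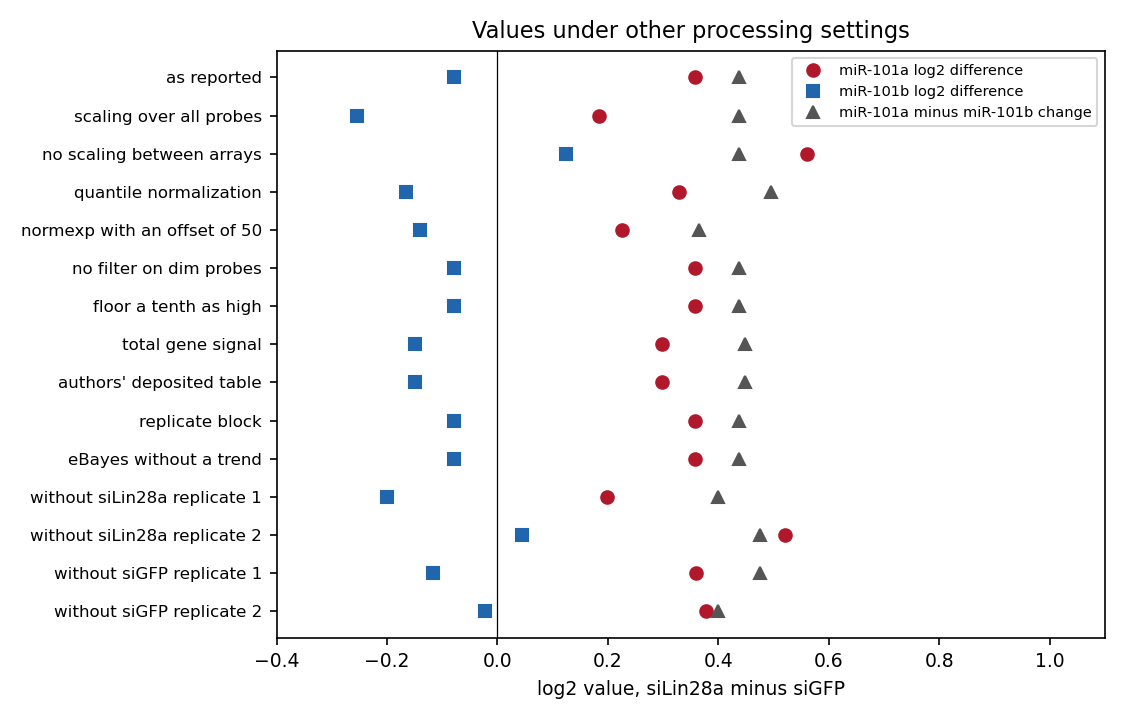
Log2 difference of miR-101a (circles) and miR-101b (squares) and the change of their log2 ratio (triangles), siLin28a minus siGFP, as reported and under 14 other settings, 6 of which cannot move the ratio. The ratio change lies between 0.37 and 0.50 in every setting shown, miR-101a between 0.18 and 0.56, and miR-101b between -0.25 and 0.12.

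The tested miRNAs whose pattern over the 4 arrays was most like each member were found by the root mean square distance between log2 levels centred on their own means. For miR-101a they were miR-466c-5p of the Sfmbt2 intron cluster (distance 0.06), miR-29b, known to repress collagens (0.07), and miR-141 of the epithelial miR-200 family (0.08). Their log2 differences were 0.24, 0.29 and 0.40, each higher with siLin28a without overlap, as were 30.7% of all tested miRNAs. For miR-101b they were miR-301a (0.03), miR-291a-3p of the embryonic stem cell cluster that also holds miR-294 (0.04) and miR-103 (0.05). Their log2 differences were -0.06, -0.11 and -0.06, and only miR-291a-3p, which was lower, had groups without overlap. Groups without overlap and with siLin28a lower were found for 30.7% of all tested miRNAs. The nearest miRNAs of both members were picked by likeness over these same arrays, so nothing is read from their differences. The distance between the paralogs was 0.22. miR-101b ranked 74th of 230 other miRNAs by nearness to miR-101a, and miR-101a ranked 144th by nearness to miR-101b.

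Other paralogs give a measure of how far such pairs can part on these arrays. Tested names that share a number and an arm label and differ by a letter were grouped, and 19 groups held exactly 2 names. Of these, 3 came from miR-466, whose names with no arm label, with 3p and with 5p were counted apart. Over the 19 pairs, the size of the difference between the members' log2 differences had a median of 0.24 and a range of 0.02 to 0.73. The miR-101 pair, at 0.44, was 5th. The members had opposite signs in 9 of the 19 pairs. The ratio within the array had groups without overlap in 12, the miR-466 pair labelled 5p among them. Among all 231 tested miRNAs taken singly, 30.7% were higher and 30.7% lower without overlap, so nothing is read from the count of 12. Larger than the miR-101 pair were miR-466g and miR-466h (-0.08 against 0.65), miR-466e-3p and miR-466f-3p (0.59 against -0.13), miR-106a and miR-106b (-0.32 against 0.21), and miR-27a and miR-27b (-0.26 against 0.25). In both of these larger miR-466 pairs the ratio overlapped between the groups. The miR-106 ratio had a pooled replicate SD of 0.07 and no overlap, as the miR-101 ratio had.

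**Figure D5:**
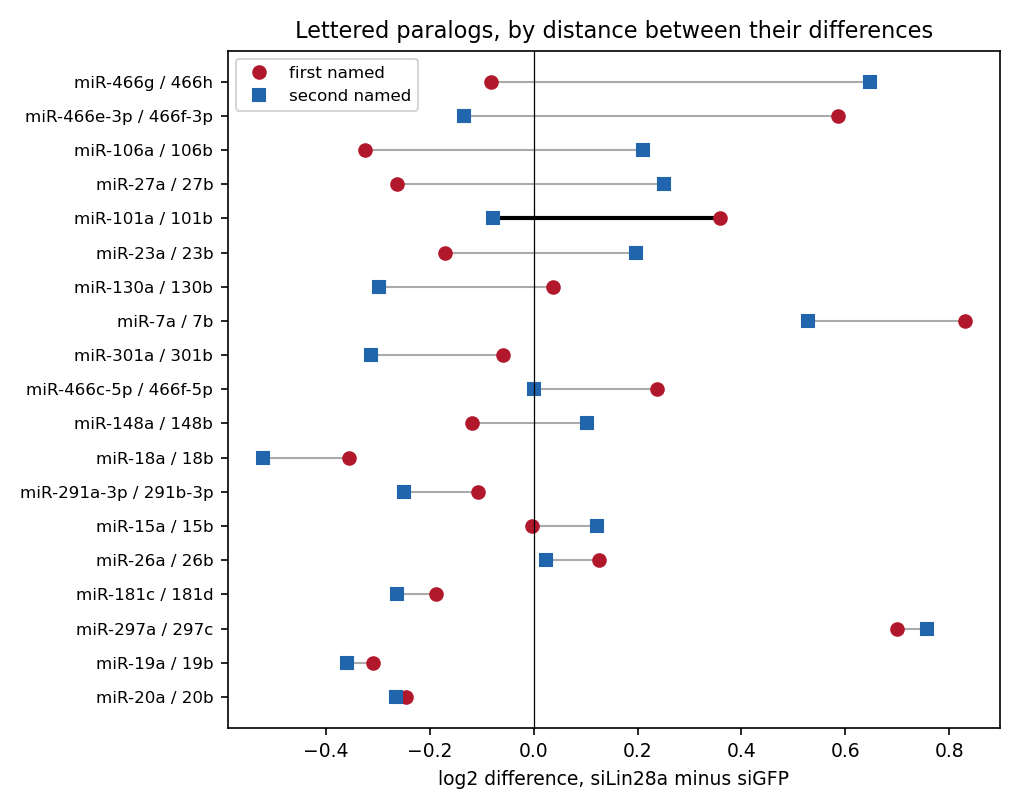
Log2 difference (siLin28a minus siGFP) of the members of 19 lettered paralog pairs, the first named as a circle and the second as a square, ordered by the distance between them. The miR-101 pair, drawn in black, is the 5th from the top, with miR-101a at 0.36 and miR-101b at -0.08.

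A list of 14 miRNAs other than miR-101 known to repress Ezh2 was set against the pair. All 14 were on the array and 8 were tested. The 5 tested let-7 members were kept only because of their siLin28a signals and were at the floor on both siGFP arrays, so their differences could not fall below 0. The 2 called miRNAs, let-7a and let-7f, were among these 5, so nothing is read from their count beside the 0.866% of all tested miRNAs that were called. Of the other 3 tested members, 0 were called. miR-26a, a repressor of growth genes as well as Ezh2, had levels of -0.17 and -0.10 with siLin28a and -0.20 and -0.31 with siGFP. Its log2 difference was 0.13 (SE 0.08, limma adjusted p = 0.370). The miR-26a groups did not overlap, with siLin28a higher, as for 30.7% of all tested miRNAs. miR-26b differed by 0.02 (SE 0.21, limma adjusted p = 0.950) and miR-124, a neural miRNA, by 0.03 (SE 0.20, limma adjusted p = 0.934), both with overlap.

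The labelled cell type was checked on marker miRNAs. All 6 embryonic stem cell markers were detected on all 4 arrays, with summed total signals of 65765 and 68201 on the siLin28a arrays and 59534 and 59203 on the siGFP arrays. Of 5 markers of primed pluripotent cells, 4 were detected on no array, and none of the 3 muscle or 3 endoderm markers was tested. Of 7 fibroblast or feeder markers on the array, 4 were detected on all arrays, and miR-145 and miR-199a-5p on none. The summed signal of that list was 485.2 and 458.2 with siLin28a and 427.4 and 361.3 with siGFP, that of 4 neural markers 243.6 and 330.3 against 209.5 and 254.6, and that of 5 blood markers 160.3 and 114.4 against 123.3 and 97.6. These sums are unscaled, and the siLin28a arrays were brighter as a whole. They were on average higher with siLin28a in all 4 lists, but the lower siLin28a array of the neural and blood lists lay below the higher siGFP array. After scaling, the median log2 difference was -0.02 over the 6 tested embryonic stem cell markers and 0.05 over 4 fibroblast or feeder markers. Those 4 ranged from -0.35 to 0.25. One of them, 1 of 4, was at the floor on both siGFP arrays, so its difference could not fall below 0. The median was 0.12 over 3 neural and 0.008 over 2 blood markers. The part of these markers in the miR-101 values was not tested, and a change in the cells present cannot be told apart from a change per cell.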

How the data were processed

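The deposited scanner files hold spot intensity on a linear scale, 1 array a file. They come from Agilent Feature Extraction, version 9.5.3.1 per the submitters' processing notes. Per the file headers the background subtraction step has version 9.5.1.1, the array design is 019119 and the build is mm9. The processed intensity is the spot mean minus a background surface fitted within the array, per the file headers. The authors' deposited table holds the total gene signal, an intensity with no scaling between arrays. Checked on signals over 10, 100% of its entries differed from the scanner files by less than 5%. Flags such as well above background are also those of the deposited files. The labelling used 100 ng of RNA per the labels. All arrays lay on 1 slide.

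Between 3.21% and 4.32% of spots were left out as outliers, and none was saturated. Spots were averaged per probe, and a probe counted as well above background when at least 50% of its spots were. Signals were divided by the 75th percentile described above, given a floor of 0.0948 and put on the log2 scale. Dim probes were dropped unless a group had both its arrays well above background, leaving 477 probes. Kept probes were averaged per miRNA. limma 3.58.1 in R 4.3.3 (eBayes with a trend, two-sided, Benjamini-Hochberg over 231 miRNAs, 2 residual and 1.64 prior degrees of freedom) compared the groups. Tested on simulated data with 40 changed miRNAs among 231 in each of 50 runs, it recovered 92.2% of those changed by 1 on the log2 scale. That share does not carry over to the data, where few miRNAs were called.

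The members, lists and tests were chosen with earlier results of these data known. Named are the members and the other arm of their hairpins, miR-101c for its sequence, the 3 nearest patterns of each member, the tested Ezh2 repressors, the largest paralog pairs, and markers. The 4th paralog pair and members of marker lists named as undetected were picked after their values were seen. Hairpin and mature sequences are from RefSeq (GRCm38.p6), and both members matched by name.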

Additional observations from a re-analysis of the deposited data

How the results depend on the processing

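The change of the miR-101a to miR-101b log2 ratio, 0.44 as reported, was the same by construction in 6 of 14 alternatives, which cannot move a ratio of bright miRNAs within an array, and was positive in the other 8. It was 0.50 with quantile normalization and 0.37 with normexp, whose offset of 50 narrows differences of dim signals, and 0.40 to 0.48 with 1 array left out. The scaling between arrays set the level of each member. With the scaling over all probes the median of all tested miRNAs was -0.16, miR-101a was 0.18 and miR-101b was -0.25. With no scaling these were 0.19, 0.56 and 0.12, so that miR-101b changed sign. Relative to that median miR-101a lay at 0.34 and 0.37 and miR-101b at -0.10 and -0.07. With 1 array left out miR-101a ranged from 0.20 to 0.52 and miR-101b from -0.20 to 0.044, the last without siLin28a replicate 2. With single probes, medians over spots and the other alternatives run, both moved by less than the replicate SD. The count of miRNAs called higher, 2 as reported, was 0 with the scaling over all probes (18 higher and 60 lower at an unadjusted p below 0.05) and 0 with normexp (10 and 13). It was 8 with a lower floor, 8 with the total gene signal, 8 with the authors' deposited table and 40 with no filter on dim probes, where 8 were lower. With 1 array left out it was 0 to 13, namely 13 without siLin28a replicate 1, 7 without siLin28a replicate 2 and 0 without either siGFP array. A lone array was assumed there to vary like the other group. The count of lower miRNAs was 0 in those 4 fits, and the cause of these moves was not tested. Over all 57 lettered pairs the median distance was 0.24, as over the 19. With the replicate block the differences were 0.36 and -0.08, the ratio change 0.44 and the counts of calls 2 and 0, as reported. Equal counts do not show that the same miRNAs were called. At an unadjusted limma p below 0.05 the block gave 49 higher and 31 lower, against 31 and 26 as reported. Arrays of the same number deviated together (correlation 0.71 over 231 miRNAs), but with 2 numbers, which also go with position on the slide, this does not show that they pair the samples.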
